A study of Astyanax mexicanus with 12 samples.

Results

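The genes described here were lower at 7 than at 5 days post-fertilization (dpf) in the larval liver of Tinaja cavefish and had about the same mean level at both ages in surface fish. They were chosen by their measured values. Levels are log2 CPM, from read counts divided by library size after the library sizes were scaled by TMM factors. To enter, a gene needed a mean log2 CPM in Tinaja at least 1 lower at 7 dpf. Its mean in surface fish had to move by no more than 0.5 in either direction. All 3 Tinaja libraries at 7 dpf had to lie below all 3 at 5 dpf. The mean of the gene over all libraries had to be under 10. Of 17540 genes tested 188 met these conditions, and the 150 with the largest difference in Tinaja form the list. They are 150 of 27420 gene identifiers in the deposited counts.

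The study dissected livers of Astyanax mexicanus larvae, a species with eyed fish living in rivers and blind cave forms, of which Tinaja is one. The 4 groups were Surface and Tinaja genotypes at 5 and at 7 dpf, each with 3 libraries, and every library was a pool of livers from 40 larvae. Larvae were collected at 5 dpf, a stage the study calls fed, or were fasted until 7 dpf, so that the effects of age and of food cannot be told apart. The paper cites visible yolk as gone before 5 dpf in surface fish and only after 5 dpf in cavefish. The morphs may thus differ in remaining yolk at 5 dpf, and the effects of yolk and morph cannot be told apart there. All larvae came from laboratory stocks, with embryos of different parent tanks mixed, and p-values refer to the variation from pool to pool, part of which may be technical.

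The liver of a fish larva first lives on yolk, whose lipids and proteins it takes up and exports, and turns to stored fat and amino acids once the yolk is gone. Fasting is known to lower transcripts for building and growth in the vertebrate liver and to raise those for burning fat. Cavefish are known for resisting starvation and for storing fat well, so a gene whose level moves in only one morph over these days is a natural place to look for a difference between them.

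No gene names stand beside the identifiers, since 0 of 27420 matched the RefSeq names of the surface fish assembly. The genes are therefore given by identifier and level, with no role, and liver markers and markers of neighbouring tissues were not analysed here. In pooled tissue, fewer cells of a type and less RNA per cell cannot be told apart.

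The libraries held 10.6 to 23.6 M reads in genes. Reads outside annotated genes took 19.9% to 34.3% of all reads. They did not separate the ages in Tinaja, with means of 24.0% at 5 dpf and 25.4% at 7 dpf (exact two-sided permutation p = 0.7, n = 3), and were lower without overlap at 7 dpf in surface fish, with 21.7% against 30.7% (exact permutation p = 0.1, the smallest that 3 against 3 allows). Tinaja 7 dpf replicate 1 stood apart from its group over all genes, at 81.4 on the first component of the variation within groups against -39.6 and -41.9 for the other libraries of that group. Over the listed genes alone the same measure set surface 7 dpf replicates 3 and 2 farthest apart, at 8.58 and -7.99, with Tinaja 7 dpf replicate 1 at 4.99 and Tinaja 5 dpf replicate 2 at -4.53.

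**Figure D1:**
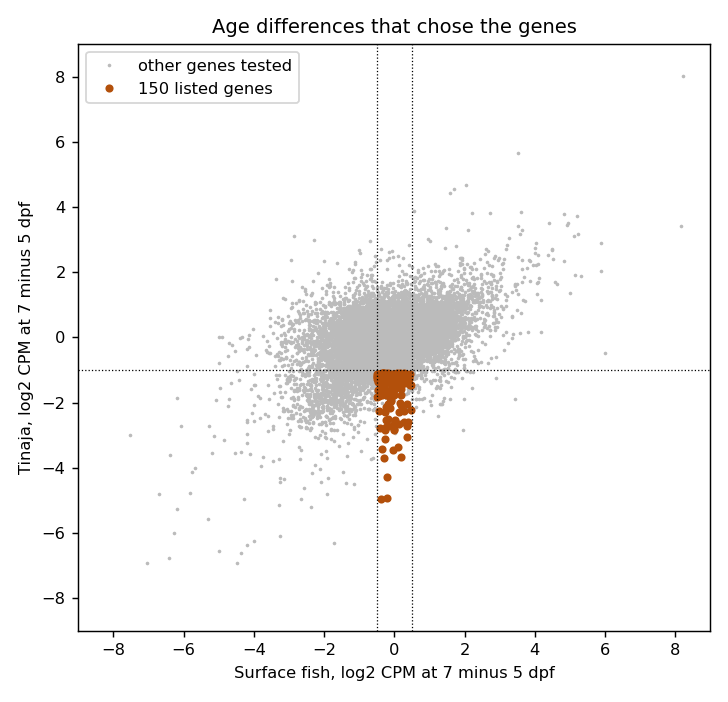
Mean log2 CPM at 7 minus 5 dpf in surface fish (horizontal axis) and in Tinaja (vertical axis), 1 point a gene, with dotted lines at the limits that chose the genes. The 150 listed genes lie between -4.94 and -1.10 in Tinaja and between -0.50 and 0.48 in surface fish, because they were picked there.

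The steps of the choice show how many genes shared each part of the pattern. In Tinaja 1488 genes were at least 1 log2 unit lower at 7 dpf, of which 872 were also at least 1 log2 unit lower in surface fish and 304 stayed within 0.5 there. The requirement that the Tinaja ages do not overlap left 189 of the 304, against 12.4% of all genes tested with Tinaja 7 dpf below 5 dpf in every library, and the limit on abundance left 188. The same conditions mirrored to genes higher at 7 dpf in Tinaja were met by 116 genes, and with the morphs exchanged, lower in surface fish and level in Tinaja, by 909. These counts describe the table, and no test separates genes that change from those that the spread between libraries put on the list, which may be many of them.

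The size of the difference in Tinaja was a median of -1.34 log2 units, with the middle of the list between -1.91 and -1.18. It was at least 4-fold for 36 of the 150 genes and at least 8-fold for 10. The last gene on the list, ENSAMXG00000025647, stood at -1.097 and the first gene left off it, ENSAMXG00000020438, at -1.096, so the end of the list marks no step in the data. In surface fish the differences had a median of -0.19, and 107 were below 0 and 40 above. In the quasi-likelihood test of edgeR 85 of the 150 passed as lower with age in Tinaja at an adjusted p under 0.1, where 4.72% of all genes passed in that direction. The rule used this contrast, and nothing is read from the count.

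**Figure D2:**
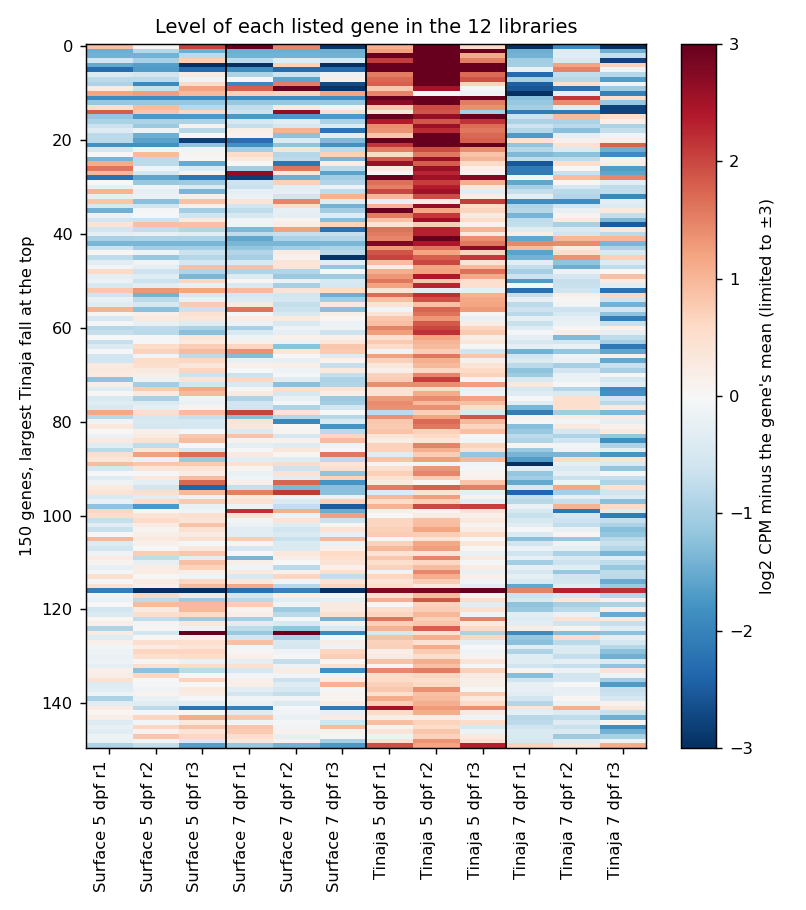
Level of each of the 150 genes in the 12 libraries, as log2 CPM minus the gene's own mean (colour, limited to ±3), with the largest Tinaja difference in the top row and r1 to r3 for replicates. The 3 Tinaja 5 dpf columns are high by choice, and the column of replicate 2 is the highest of them for 112 genes.

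The summed level of the 150 genes is given as a description. The rule fixed its fall in Tinaja and chose genes with level means in surface fish. In Tinaja at 5 dpf they summed to 8636 CPM in replicate 1, 14292 CPM in replicate 2 and 6324 CPM in replicate 3. At 7 dpf the sums were 2457, 3056 and 2104 CPM. In surface fish they ran from 3175 to 4176 CPM at 5 dpf and from 2664 to 3906 CPM at 7 dpf. Surface fish thus lay between the Tinaja ages, close to Tinaja at 7 dpf, and the highest Tinaja 7 dpf sum lay above the lowest surface sum. A single gene made up 24.9% of the Tinaja 5 dpf mean and the 5 most abundant 47.1%. Without these 5 the mean sums were 5359 ± 2202 CPM and 1692 ± 334 CPM in Tinaja at 5 and 7 dpf, and 2466 ± 428 CPM and 2286 ± 270 CPM in surface fish (SD, n = 3). The order of the groups was the same with and without them.

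**Figure D3:**
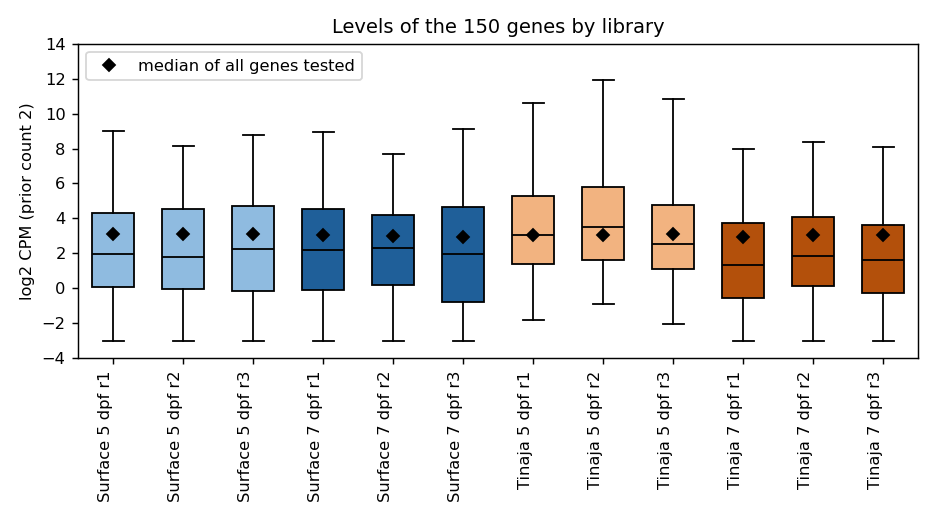
Log2 CPM of the 150 genes in each library (boxes: quartiles and median, whiskers: lowest and highest gene) with the median of all 17540 genes tested as diamonds. The median of the listed genes was 2.54 to 3.53 in the Tinaja 5 dpf libraries, 1.33 to 1.85 at 7 dpf and 1.81 to 2.30 in surface fish, while the median of all genes stayed between 2.92 and 3.10.

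The listed genes were less abundant than most. Their mean log2 CPM had a median of 2.01, against 2.99 for all genes tested, and 36.7% of them were under 1, against 24.2% of all. Sorted by their mean level in Tinaja at 5 dpf, 12 genes were under 1 CPM, 65 at 1 to 10 CPM, 53 at 10 to 100 CPM and 20 over 100 CPM. The median difference in Tinaja was -1.26, -1.40, -1.24 and -1.51 in these classes, values that the common limit of the rule holds close together. The standard error (SE) of the fitted Tinaja age effect had a median of 0.94 in the lowest class and 0.42 in the highest, which makes single values of the weak genes the less certain ones.

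Tinaja 5 dpf replicate 2 was the highest of its group for 112 of the 150 genes and replicate 3 the lowest for 107. Replicate 2 exceeded the mean of the other libraries of its group by a median of 0.64 log2 units, against 0.04 over all genes, and by more than 1 unit for 42 listed genes. Measured against the Tinaja 7 dpf mean, the median difference was -1.33 from replicate 1, -1.76 from replicate 2 and -1.05 from replicate 3. The direction was fixed by the choice of genes, and the size differed between the libraries. Reads outside genes moved with this order, at 22.2%, 19.9% and 30.0% in replicates 1, 2 and 3, and their part in it was not tested. Without replicate 2, 117 of the 150 genes still met the conditions, the median fitted change in Tinaja was -1.19 in place of -1.42, and 12 genes passed in place of 85. The count of 85 also changed by more than 1.5 times without Tinaja 5 dpf replicate 1 (33 genes), Tinaja 7 dpf replicate 1 (27) or replicate 3 (23), or surface 5 dpf replicate 2 (53). Leaving out a library also changes the calls over all genes, and the shares in these fits are not given here. These counts therefore do not show a shift of the list alone.

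The surface fish side of the pattern is a mean difference near 0, which is not the same as a steady level. The surface ages overlapped for 142 of the 150 genes, with the 3 genes without a surface read counted as overlapping. At 7 dpf 7 were lower in every library, where 22.2% of all genes were lower without overlap. The 1 remaining gene was higher, a direction for which no share over all genes is given. Of the 150, 0 passed for the age effect in surface fish in edgeR, where 14.1% of all genes passed as higher and 14.4% as lower, and 0 reached an unadjusted p under 0.05 in either direction. DESeq2 called 0 as well. Among the 138 genes with more than 10 reads in the surface libraries, the 95% interval of the fitted age effect stayed within 2-fold in both directions for 34, reached a 2-fold decrease for 84 and a 2-fold increase for 55. For most of the list these libraries therefore leave room for a 2-fold change in surface fish. The level also depends on the scaling, since with library totals in place of TMM scaling factors the median age effect in surface fish was -0.77 over all genes and -0.82 over the list. On that scale 46 of the 150 genes were called lower with age in surface fish, against 41.5% of all genes, and 36 met the conditions of the list. The rule chose the genes by their surface means, and nothing is read from these counts and medians.

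Some of the listed genes varied widely among the surface libraries. At 7 dpf the highest and lowest surface library differed by more than 2 log2 units for 24 genes, or 16% of the list against 9.85% of all genes. Replicate 3 was the lowest in 19 of the 24, and over all genes with such a range in 59.0%. The clearest case is ENSAMXG00000035110, the gene with the largest difference in Tinaja, chosen here after its values were seen. In surface fish it stood at 14.3, 7.86 and 31.3 CPM at 5 dpf and at 75.1, 21.0 and 0.898 CPM at 7 dpf, so that the 7 dpf libraries lay both above and below those of 5 dpf. In Tinaja it went from 16.1, 81.8 and 11.3 CPM to 0.137, 1.95 and 0.84 CPM. Its mean log2 values put it among the level genes of surface fish, although the libraries behind that mean lie far apart.

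Whether the listed genes differ between the morphs over both ages was not a condition of the rule. The contrast used was the mean of both Tinaja ages minus the mean of both surface ages, which with equal groups and equal spread is independent of both age differences. Within groups the listed genes ranged over a median of about 1 log2 unit in Tinaja at both ages. In edgeR 44 of the 150 genes were higher in Tinaja at an adjusted p under 0.1, or 29.3%, against 15.1% of all genes tested, and 21 were lower, or 14%, against 12.6%. At least 2-fold differences were called for 40 and 11 of them, against 9.12% and 6.77% of all genes. The median over the list was 0.35, against -0.01 over all genes. A gene hardly read in surface fish could enter the list only through Tinaja, and for such genes the direction was fixed. When only genes that passed the count filter in each morph alone were fitted, an alternative added after seeing the data, 118 of the 150 remained, of which 23 were higher in Tinaja, or 19.5% against 13.2% of 15379 genes, and 14 lower, or 11.9% against 10.7%. No direction is read from these shares for the list as a whole. Without Tinaja 5 dpf replicate 2 the counts were 37 higher and 23 lower, against 14.5% and 11.4% of all genes. Without Tinaja 7 dpf replicate 1 they were 51 and 19, a fit whose shares over all genes are not given here.

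The 44 genes higher in Tinaja had a median log2 fold change of 1.71 between the morphs, ranging from 0.51 to 7.96. For 8 of the 44 the surface libraries together held at most 3 reads. The value of 7.96 belongs to ENSAMXG00000011287, which had no surface read, so its size has no measured surface level behind it. The group means of the 44 had medians of 0.95 and 1.13 CPM in surface fish at 5 and 7 dpf and of 10.3 and 4.0 CPM in Tinaja. The 21 genes lower in Tinaja had a median of -1.02, with 8.13 and 6.59 CPM in surface fish and 5.86 and 2.31 CPM in Tinaja. Of the 44 genes, 33 were called higher at 5 dpf only, 9 at both ages and 2 at neither. Of the 21, 20 were called lower at 7 dpf only and 1 at neither age. Most averaged calls thus rest on 5 dpf for the higher genes and on 7 dpf for the lower ones. All 6 Tinaja libraries lay above all 6 surface libraries for 11 genes, or 7.33% against 3.58% of all genes tested, and below them for 1 gene, or 0.667% against 2.18%. Genes hardly read in surface fish were among the 11, ENSAMXG00000011287 being one, and their direction was fixed. No direction is read from these shares.

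**Figure D4:**
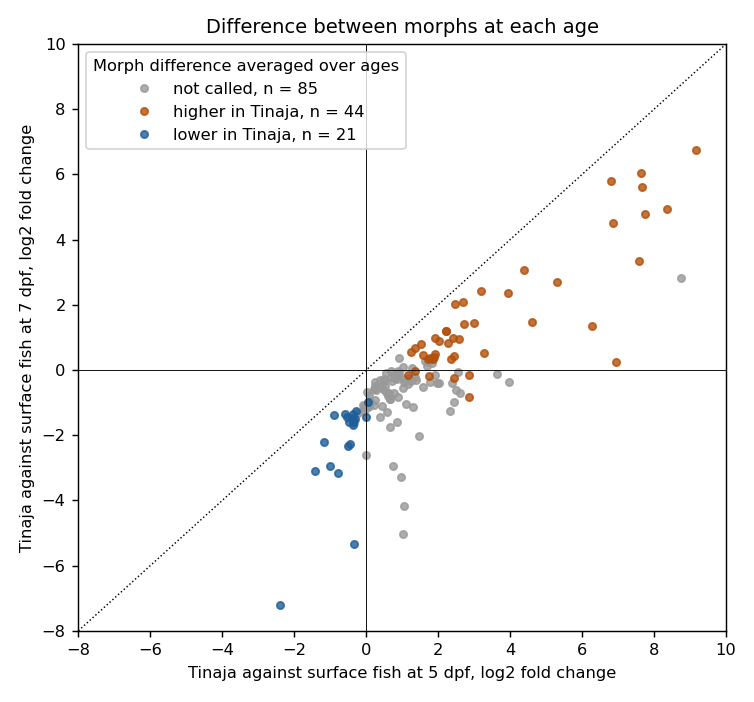
Log2 fold change of Tinaja against surface fish at 5 dpf (horizontal axis) and at 7 dpf (vertical axis) for the 150 genes, coloured by the call of the difference averaged over both ages. All points lie below the dotted line of equal differences because of how the genes were chosen, and along that line 44 genes were called higher and 21 lower in Tinaja.

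Taken at each age, the difference between the morphs shares the Tinaja libraries with the rule and is given as a description. At 5 dpf 66 of the 150 genes were called higher in Tinaja and 0 lower, against 8.77% and 7.22% of all genes. At 7 dpf 9 were called higher and 31 lower, against 10.6% and 7.71%. The 66 became 41 without Tinaja 5 dpf replicate 2 and 43 without replicate 1, and the 9 became 16 without Tinaja 7 dpf replicate 1. The 31 became 16 or 7 without Tinaja 7 dpf replicate 2 or 3, and 12 or 18 without surface 7 dpf replicate 1 or 3. The calls over all genes change in such fits too, and nothing is read about the list from these shifts. The list splits into 4 kinds by these calls. The first kind, 57 genes, was higher in Tinaja at 5 dpf and not called at 7 dpf, with median levels of 13.9 and 4.26 CPM in Tinaja and of 2.63 and 2.88 CPM in surface fish. The second, 31 genes, was not called at 5 dpf and lower in Tinaja at 7 dpf, with medians of 8.73 and 2.78 CPM against 9.20 and 8.05 CPM. The third, 9 genes, was higher in Tinaja at both ages, at 5.08 and 0.83 CPM against 0.0217 and 0.022 CPM. For 5 of these 9 the surface libraries together held at most 3 reads, and for 6 at most 10. The direction was fixed for genes so little read there. The remaining 53 genes were called at neither age. By group means alone, 80 genes passed from above the surface mean to below it, 46 stayed above it and 24 were already below it at 5 dpf.

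Some of the listed genes were level in surface fish only in the sense that they were hardly read there. For 9 genes, of which 5 belong to the third kind above, the 6 surface libraries together held at most 3 reads. For 3 of the 9 they held none. The 9 genes stood at 0.949 to 12.3 CPM in Tinaja at 5 dpf and at 0.0449 to 0.83 CPM at 7 dpf, and 8 of them were called higher in Tinaja averaged over ages. ENSAMXG00000011287, chosen after its values were seen as the highest of the 3 without a surface read, had 91, 89 and 58 reads in Tinaja at 5 dpf (4.71, 5.13 and 3.47 CPM) and 1, 28 and 7 reads at 7 dpf (0.0684, 1.89 and 0.535 CPM). The Tinaja ages did not overlap. With the reads of both ages pooled it was at least 92.5-fold higher in Tinaja, taking 3 counts over the surface libraries as the limit that 0 reads allow. The pool held 238 reads at 5 dpf and 36 at 7 dpf, so the bound rests mainly on 5 dpf. The bound covers counting error only, and is a description of a gene picked for this pattern. Whether such a gene is silent in surface fish or its reads were placed elsewhere was not tested.

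**Figure D5:**
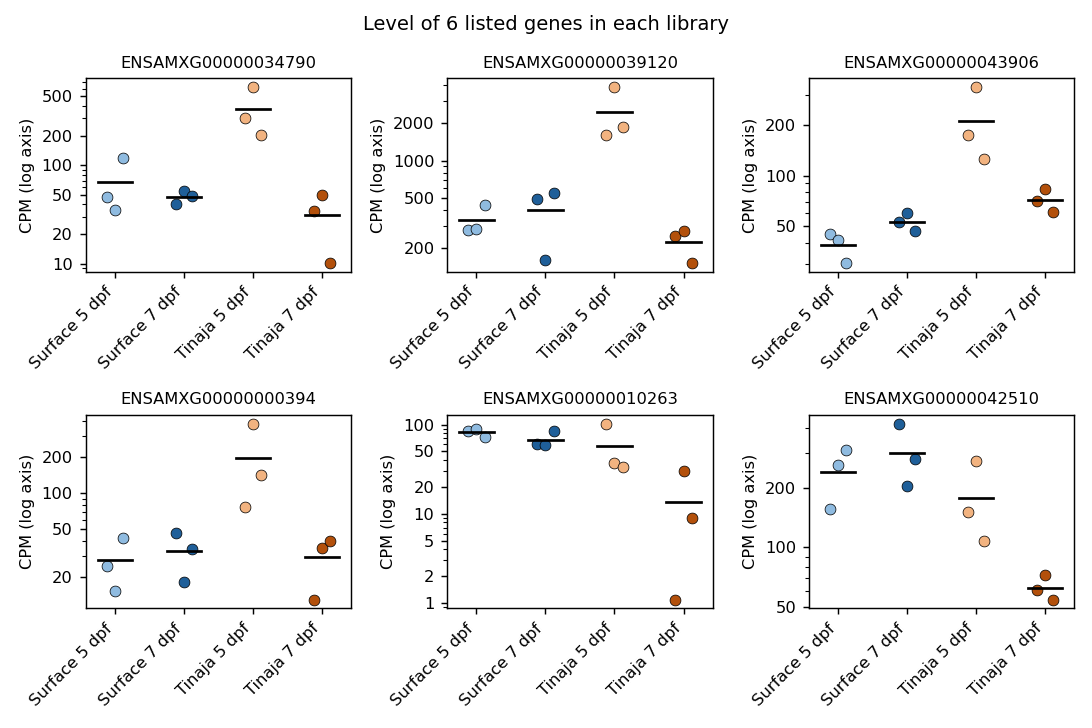
CPM on a log axis of 6 listed genes in each library (points) with the mean of each group (bars, n = 3). From left to right, the upper row holds the genes with the largest Tinaja differences at a mean log2 CPM of at least 3, ENSAMXG00000034790 and ENSAMXG00000039120, and then ENSAMXG00000043906, one of the 2 highest in Tinaja averaged over ages. The lower row holds the other, ENSAMXG00000000394, and the 2 lowest, ENSAMXG00000010263 and ENSAMXG00000042510.

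Among listed genes of a mean log2 CPM of at least 3, the largest Tinaja differences belonged to ENSAMXG00000034790 and ENSAMXG00000039120. ENSAMXG00000034790 stood at 302, 621 and 204 CPM in Tinaja at 5 dpf and at 34.3, 50.2 and 10.2 CPM at 7 dpf, a difference of -3.69 in mean log2 CPM. In surface fish it was at 47.1, 35.5 and 118 CPM and then at 40.5, 54.7 and 49.1 CPM. The Tinaja 5 dpf libraries stood above all others, and Tinaja at 7 dpf overlapped with surface fish. Averaged over ages the morphs did not differ past the threshold (log2 fold change 0.94, SE 0.42, edgeR adjusted p = 0.134). The gene passed in 3 alternatives, among them DESeq2 (adjusted p = 0.0721), and did not pass in 17.

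ENSAMXG00000039120 was also the most abundant gene of the list. It was at 1600, 3840 and 1840 CPM in Tinaja at 5 dpf and at 249, 274 and 153 CPM at 7 dpf, a difference of -3.36. Surface fish held 277, 285 and 445 CPM at 5 dpf and 490, 162 and 548 CPM at 7 dpf. Again only Tinaja at 5 dpf lay apart from the other groups. Averaged over ages it was higher in Tinaja (log2 fold change 1.02, SE 0.34, edgeR adjusted p = 0.0554, range over the alternatives 0.0129 to 0.124). The difference was 2.855 at 5 dpf and -0.8255 at 7 dpf, where it was not called (edgeR adjusted p = 0.276). The averaged call thus rests on 5 dpf. Leaving out replicate 2 of Tinaja at 5 dpf (0.77) or at 7 dpf (0.95) ended the call, as did replicate 1 or 2 of surface fish at 5 dpf (0.96 in both fits) and replicate number as a block (1.02, adjusted p 0.113 in edgeR).

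The genes highest in Tinaja over both ages, among those past the threshold and at the same minimum level, were ENSAMXG00000043906 and ENSAMXG00000000394. ENSAMXG00000043906 was at 175, 336 and 126 CPM in Tinaja at 5 dpf and at 70.7, 83.7 and 61.1 CPM at 7 dpf, against 44.8, 41.8 and 30.4 CPM and then 53.2, 60.0 and 47.3 CPM in surface fish. Every Tinaja library exceeded every surface library, at 7 dpf by a small margin (61.1 against 60.0 CPM). The log2 difference over both ages was 1.44 (SE 0.24, adjusted p in edgeR 0.00186), and the call held in all alternatives that were run. The difference was 2.445 at 5 dpf and 0.4244 at 7 dpf, where it was not called (edgeR adjusted p = 0.416). The averaged call of this gene thus rests on 5 dpf. ENSAMXG00000000394 was at 76.1, 378 and 141 CPM and then 13.0, 34.9 and 40.1 CPM in Tinaja, and at 24.8, 15.2 and 42.5 CPM and then 46.3, 18.1 and 34.3 CPM in surface fish. At 7 dpf its groups overlapped, so the difference over both ages (1.34, SE 0.44, edgeR adjusted p = 0.0529, range over the alternatives 0.00926 to 0.124) rests on 5 dpf. ENSAMXG00000007738, seen to have the same value after the choice was made, differed by 1.34 with a smaller error (SE 0.24, edgeR adjusted p = 0.00326). Its difference also rests on 5 dpf, at 2.352 there and 0.3309 at 7 dpf, where it was not called (edgeR adjusted p = 0.549). For ENSAMXG00000000394 the call was lost with replicate number as a block (1.22, adjusted p 0.124 in edgeR). It did not pass when Tinaja 5 dpf replicate 2 was left out (0.91), nor without replicate 2 of surface fish at 5 dpf or replicate 3 of Tinaja at 7 dpf (1.2 in both fits).

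The genes lowest in Tinaja were ENSAMXG00000010263 and ENSAMXG00000042510. ENSAMXG00000042510 was at 151, 272 and 108 CPM in Tinaja at 5 dpf and at 60.9, 72.6 and 54.6 CPM at 7 dpf. Surface fish held 156, 260 and 310 CPM and then 421, 204 and 280 CPM. The morphs overlapped at 5 dpf and stood apart at 7 dpf, and over both ages they differed by -1.36 log2 units (SE 0.28, edgeR adjusted p = 0.00634), a call that held in all alternatives that were run. ENSAMXG00000010263 was at 102, 36.9 and 33.6 CPM and then 1.09, 30.1 and 9.01 CPM in Tinaja, against 84.1, 88.6 and 72.6 CPM and then 61.3, 58.9 and 84.1 CPM in surface fish. Its morph difference was -0.51 at 5 dpf, not called (edgeR adjusted p = 0.734), and -2.34 at 7 dpf (edgeR adjusted p = 0.0897). The averaged difference of -1.42 (SE 0.56, edgeR adjusted p = 0.0974) thus rests on 7 dpf. It passed narrowly and was lost in 14 of 20 alternatives, with an adjusted p of 0.017 to 0.2 over them. Of the libraries left out in turn, only Tinaja 5 dpf replicate 1 and Tinaja 7 dpf replicates 1 and 2 left the call in place.

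Genes near the end of the list show how much weaker a member can be. ENSAMXG00000025647 was at 5.22, 3.06 and 6.95 CPM in Tinaja at 5 dpf and at 2.12, 1.69 and 2.90 CPM at 7 dpf, with 0.299 to 0.714 CPM in surface fish. The Tinaja ages were separate by a small margin, and every Tinaja library lay above every surface library (log2 fold change 2.81, SE 0.33, edgeR adjusted p = 0.00021). With 4 to 11 reads in each surface library, this gene passed the count filter through its Tinaja level. No direction is read from its separation or its p-value. Just outside, ENSAMXG00000020438 went from 8.07, 7.21 and 7.54 CPM to 1.98, 5.06 and 4.20 CPM in Tinaja, and surface fish held 6.56 to 7.10 CPM and then 4.54 to 5.98 CPM, so its surface ages did not overlap either. Over the list the gap between the lowest Tinaja 5 dpf and the highest Tinaja 7 dpf library had a median of 0.46 log2 units, with 21 genes under 0.2 and 21 over 1.

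Outside the list, ENSAMXG00000041133 and ENSAMXG00000007656 followed its mean profile most closely among 8688 genes of at least 3 in mean log2 CPM, with Pearson correlations of 0.951 and 0.94 over the 12 libraries. This is a description, and the libraries share their scaling. ENSAMXG00000041133 was at 123, 168 and 81.1 CPM in Tinaja at 5 dpf and at 53.0 to 59.7 CPM at 7 dpf, with 55.9 to 76.6 CPM in surface fish. Its Tinaja difference of -1.05 met the limit, but it stood past the first 150 genes. ENSAMXG00000007656, at 36.5, 41.8 and 32.3 CPM and then 24.6, 22.7 and 21.8 CPM in Tinaja, missed the limit with -0.67.

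The difference of the age effects between the morphs is made of the contrasts that the rule used, and its values are a description. Its median over the list was -1.41 in log2 fold change. In edgeR 0 of the 150 genes passed at an adjusted p under 0.1, where 0.0342% of all genes passed as higher and 0.0114% as lower in Tinaja, and the lowest adjusted p on the list was 0.134. At an unadjusted p under 0.05 there were 67, where 15.8% of all genes reached it in either direction. DESeq2 called 29 of them, with 2.34% of all genes called in that direction, and limma-voom 0. Without Tinaja 5 dpf replicate 3 edgeR called 18, with 1.33% of all genes, and without Tinaja 7 dpf replicate 1 it called 17, with 4.24%. The count differed from 0 in 5 alternatives, DESeq2 and these fits included, and stayed at 0 in 15. In the main fit a change called in Tinaja and not in surface fish is thus not shown to differ between the morphs for single genes. The rule chose the genes by these contrasts, so nothing is read from the calls in the alternatives.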

How the data were processed

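Polyadenylated RNA was made into stranded libraries and read as single 75 bp reads. The authors deposited raw read counts per gene for 27420 Ensembl identifiers, aligned with STAR 2.7.3a to astMex_2.0 with Ensembl 102 models. RSEM 1.3.0 is also named, and the strand setting behind the counts was not found in these sources. The 4 summary rows were left out. Reads at many places (6.19% to 10.7% of a library) are not in the counts, which lowers genes with near-identical copies.

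The counts were filtered with filterByExpr, scaled by TMM and fitted in edgeR 4.0.16 (R 4.3.3) by quasi-likelihood, with 1 mean per group over all 12 libraries. Calls needed an adjusted p (Benjamini-Hochberg) under 0.1, the study's false discovery rate. SEs came from the F statistics. Log2 CPM used a prior count of 2. Replicates differed by a chi-square per gene of 25.8 to 142, so none was a copy. Scripts were tested on simulated data.

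Genes named had the lowest Tinaja difference, or the highest or lowest morph difference among called genes, at a mean log2 CPM of at least 3, the list's limits, or the closest profile. Members and lists were chosen with earlier results of these data known. Alternatives were DESeq2 1.42.0, limma-voom 3.58.1, other scalings and filters, a covariate, a block and left-out libraries. Pathway and marker lists needed names and were not used.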

Additional observations from a re-analysis of the deposited data

How the results depend on the processing

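Counts for the morph difference averaged over ages stayed within 1.5 times of 44 higher and 21 lower under all alternatives run, at 35 to 53 and 14 to 27, except for 23 higher when only genes past the filter in each morph alone were fitted. With library totals for scaling, the median age effect of all genes in surface fish shifted from -0.05 to -0.77 and that of the list from -0.12 to -0.82. On that scale 36 of the 150 genes met the conditions (all 36 among the first 150). There 46 were called lower with age in surface fish against 41.5% of all genes. At 5 dpf 41 were called higher and 4 lower in Tinaja, against 4.04% and 14.4% of all genes. With DESeq2 size factors all 150 met them, and with a prior count of 0.5, 138. With reads outside genes as a covariate 12 genes were called lower with age in surface fish, where the list's median was -0.59, and 23 higher and 2 lower in Tinaja at 5 dpf and 15 lower at 7 dpf. For the difference of age effects DESeq2 gave 29 genes as lower, against 2.34% of all genes. It gave 1 lower at 5 dpf and 14 higher at 7 dpf, against 9.31% and 13% of all genes. Limma-voom gave 1 lower at 5 dpf and 18 lower at 7 dpf. A fit of the 6 Tinaja libraries called 23 genes lower with age. Where no share or median of all genes stands beside a count or median, nothing is read from it about the list.

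Left out in turn, the libraries gave 108 to 148 genes that met the conditions, 82 to 119 that stayed among the first 150, and 12 to 86 called lower with age in Tinaja. The difference of age effects ran from 0 to 18 genes, Tinaja higher at 5 dpf from 41 to 69 and lower from 0 to 2, and at 7 dpf higher from 6 to 16 and lower from 7 to 30. The lowest Tinaja age count came without Tinaja 5 dpf replicate 2, the highest without its replicate 3. The counts are given without the shares of all genes called in the same fits. The cause of these shifts was not tested.

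The replicate numbers were not shown to pair the libraries, and a check on 3 replicates cannot exclude it. Deviations of same-numbered libraries correlated at -0.283 to 0.41, with 3 of 18 pairs over 0.1, and 5 of 12 libraries matched best with their own number. The 3 pairs joined the ages of 1 morph, at 0.242 for surface replicate 1 and 0.177 and 0.41 for Tinaja replicates 1 and 3. The other pairs within a morph stood at -0.132 to 0.0394. With the replicate block 48 genes were called lower with age in Tinaja and 16 lower at 7 dpf, given without shares of all genes. That filter, counts among the first 150, and those for surface fish and for single ages, were added after seeing the data.

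Depth limits the weak genes: 55 of the 150 had a mean log2 CPM under 1.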
